A study of Mus musculus with 5 samples.

Results

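The genes described here encode the proteins of the cytosolic ribosome. They were chosen by name: every probe whose gene symbol was Rpl or Rps with a number (with or without a closing a, l, x or y), Rplp0, Rplp1, Rplp2 or Rpsa was kept, and the kinases named Rps6k were left out. Of 17742 named genes on the array, 38 met this rule, 24 of the large subunit and 14 of the small subunit. They were read by 46 probes, and each gene was represented by its brightest probe. Rps3a1 was reached through an older symbol. The naming rule uses no expression values, but it was chosen with earlier results of these data known.

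The ribosome is the particle that translates messenger RNA. Its small subunit decodes the message and its large subunit joins the amino acids. Ribosomal proteins are needed in fixed proportions, and their messages are among the most abundant of a growing cell. In mammals these messages carry a 5′ terminal run of pyrimidines (a TOP motif), through which their translation follows the activity of the mTOR kinase. New ribosomes are put together in the nucleolus by a large set of assembly factors around ribosomal RNA made by RNA polymerase I.

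Mouse embryonic stem cells (ESCs) of the line 46C were differentiated towards heart muscle, and total RNA of 5 cultures was labelled with Cy5 and read on 5 single-colour arrays. The groups were knockdown cells at day 4, control cells at day 4, knockdown cells at day 10, control cells at day 10 and undifferentiated ESCs at day 0, with 1 array each. The labels describe the modified cells as a knockdown of linc1405, a long non-coding RNA, and a code in their sample names is not explained in the sources used here. Linc1405 itself was not analysed here, so the knockdown was not checked on these arrays. The day 4 cells are mesoderm cells in the labels and grew without serum with Bmp4, Activin A and VEGF. The day 10 cells are labelled cardiomyocytes and grew with bFGF, VEGF and FGF10, while the ESCs grew with serum and LIF on feeder cells that were removed at harvest. The question stated for the series is the effect of the Linc1405 knockdown along the course of differentiation. Nothing says that any culture was repeated, so no spread within a group exists, no test was possible and every difference is one between single arrays.

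As sums, markers of the labelled stages were highest on the arrays where they belong, and other cell types were present at day 10. Eomes and Pou5f1 did not follow their lists closely, and their values are given under other observations. The log2 of the summed intensities of 6 measured ESC markers was 18.89 in ESCs. It was 13.37 and 14.41 in knockdown and control cells at day 4, and 12.24 and 12.88 in knockdown and control cells at day 10. For 8 mesoderm markers these sums were 13.02 in ESCs, 16.23 and 16.87 in knockdown and control cells at day 4, and 15.11 and 15.20 in knockdown and control cells at day 10. For 6 measured cardiomyocyte markers, of 12 listed, they were 12.91 in ESCs, 13.49 and 13.36 in knockdown and control cells at day 4, and 18.10 and 18.87 in knockdown and control cells at day 10. The day 10 cultures also held signal for 5 measured fibroblast markers (17.44 in knockdown and 17.39 in control cells, against 10.25 in knockdown and 10.58 in control cells at day 4). The ESC array, from cultures grown on feeder cells, read 14.83 for them. On that array 2 of the 5 reached the intensity filter used below (9.16) and 1 was at the floor of the scale (6.64). Markers of liver-type endoderm summed to 14.24 in knockdown and 17.28 in control cells at day 10, and epicardial markers to 16.48 in knockdown and 14.09 in control cells. Nanog, Myc and Mycn were not among the measured genes. The part of this mixture of cells in the results for the ribosomal protein genes was not tested. In RNA from whole cultures, fewer cells of a type and less RNA per cell cannot be told apart.

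The ribosomal protein genes lost rank within the arrays between day 4 and day 10. Their median percentile among all named genes was 78.7 in ESCs, 76.3 in knockdown and 78.9 in control cells at day 4, and 66.1 in knockdown and 66.6 in control cells at day 10. A percentile within an array does not depend on how the arrays were scaled to each other. The median log2 level, after quantile normalization, was 12.89 in ESCs, 12.68 and 12.92 in knockdown and control cells at day 4, and 11.71 and 11.76 in knockdown and control cells at day 10. The count of genes at or above the 90th percentile of their array was 11 in ESCs, 11 in both day 4 cultures, and 9 and 10 in knockdown and control cells at day 10. The control and knockdown arrays of a day lay close together, and both day 10 arrays lay below the other 3.

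**Figure D1:**
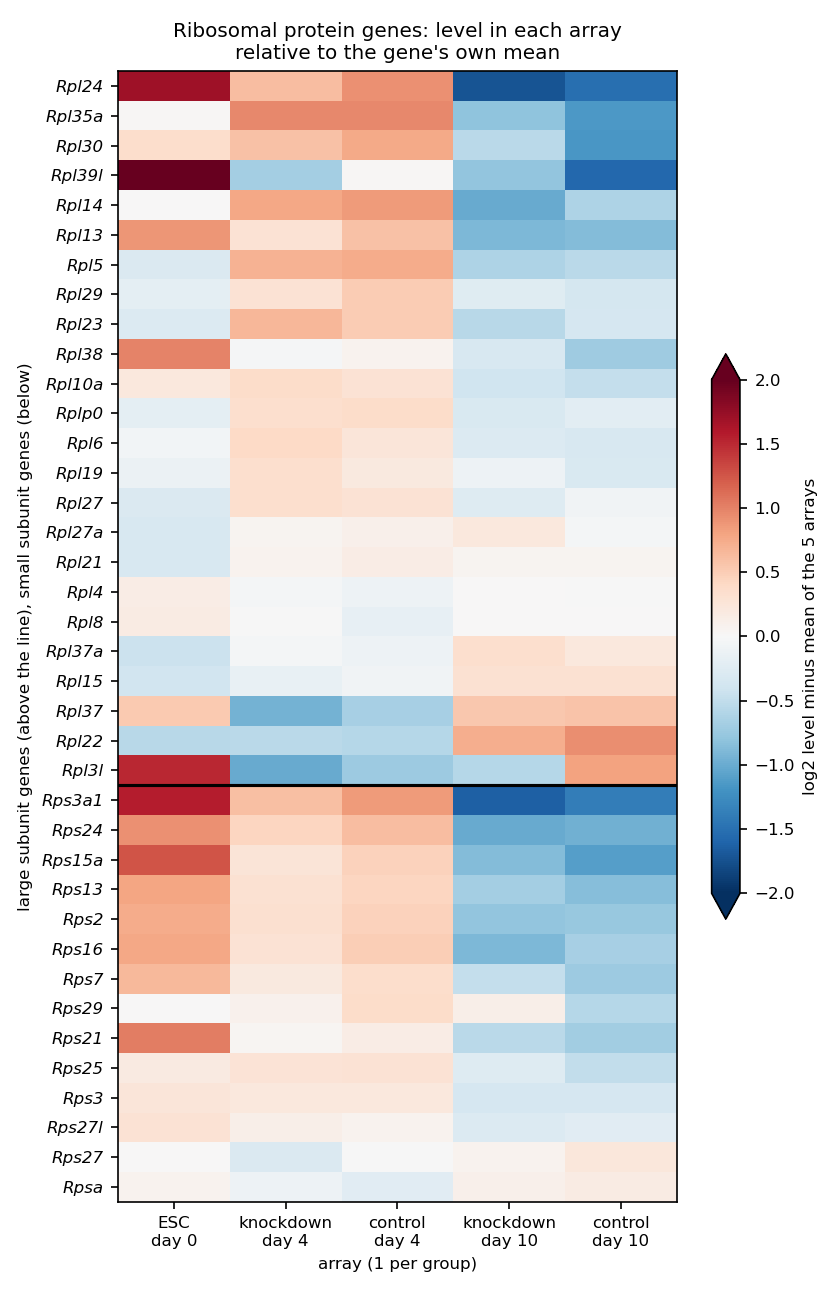
Heat map of the 38 ribosomal protein genes (rows) in the 5 arrays (columns). Colour gives the log2 intensity of the brightest probe minus its mean over the 5 arrays, with red above and blue below that mean, and the most extreme values are drawn at the ends of the colour scale. Most rows are blue in both day 10 columns, Rpl22 is red there, and the knockdown and control columns of a day look alike.

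Of the steps of the course, the one between day 4 and day 10 changed the family more. In control cells 13 genes were at least 2-fold lower at day 10 than at day 4 and 2 were at least 2-fold higher. They were counted among the 33 genes past the intensity filter, whose brighter array reached a log2 intensity of 9.16. That level was the 50th percentile of all probes, unnamed ones included, and lay below the 50th percentile of named genes. Of all genes past that filter, 19.4% were at least 2-fold lower and 19.1% at least 2-fold higher, against 39.4% of the 33 ribosomal protein genes at least 2-fold lower. The median log2 difference was -0.79 over all 38 genes, 29 of which lay below 0, and -0.12 over all genes past the filter. At a 1.5-fold threshold 19 genes were lower and 2 higher, where 33.1% and 27.8% of all genes passed. With the filter raised to the 90th percentile, 3 of 13 ribosomal protein genes were at least 2-fold lower, where 19.7% of all genes were, so the excess over all genes rested on genes below that level.

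The deepest falls were in Rpl24 and Rps3a1. Rpl24, a large-subunit protein whose mutation gives the mouse Belly spot and tail its short kinked tail, had a log2 level of 13.84 in ESCs, 12.76 and 13.06 in knockdown and control cells at day 4, and 10.42 and 10.63 in knockdown and control cells at day 10. Its level at day 10 was below that at day 4 by 5.06-fold in knockdown and 5.39-fold in control cells. In rank, the same probe stood at percentile 87.4 in ESCs, 77.1 and 80.3 in knockdown and control cells at day 4, and 53.3 and 55.5 in knockdown and control cells at day 10. The day 4 and day 10 levels of this gene lay further apart than those of any other ribosomal protein gene past the filter, in either course.

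Rps3a1, a small-subunit protein, followed the same course. Its log2 level was 13.55 in ESCs, 12.58 and 12.84 in knockdown and control cells at day 4, and 10.34 and 10.60 in knockdown and control cells at day 10. The fall between day 4 and day 10 was 4.72-fold in knockdown and 4.73-fold in control cells. Both genes were already lower at day 4 than in ESCs, by 0.78 (Rpl24) and 0.72 (Rps3a1) on the log2 scale in control cells.

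Rpl35a, Rpl30, Rpl14 and Rpl5 had another course, with the highest level at day 4. Rpl35a, a large-subunit protein, had log2 levels of 12.56 in ESCs, 13.51 and 13.50 in knockdown and control cells at day 4, and 11.74 and 11.39 in knockdown and control cells at day 10. Rpl5, which with 5S ribosomal RNA forms a particle that binds the p53 inhibitor Mdm2, had 12.51 in ESCs, 13.50 and 13.55 in knockdown and control cells at day 4, and 12.19 and 12.26 in knockdown and control cells at day 10. Its day 10 level was close to that of ESCs (a log2 difference of -0.26 in control cells), so that the fall after day 4 was about as large as the rise before it. Rpl30, a large-subunit protein, had 14.24 in ESCs, 14.48 and 14.65 in knockdown and control cells at day 4, and 13.36 and 12.74 in knockdown and control cells at day 10. The dimmer probe of Rpl30 was lower at day 4 than in ESCs (-0.37, where the brighter gave 0.41). Rpl14, also of the large subunit, fell by 1.78 on the log2 scale in knockdown and by 1.47 in control cells after day 4.

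A further 7 genes fell in control cells. Rps24, a small-subunit protein mutated in some people with Diamond-Blackfan anaemia, had 13.34 at day 10 against 14.77 at day 4 in knockdown cells, and 13.39 against 14.97 in control cells. Rps15a had 11.68 at day 10 against 12.81 at day 4 in knockdown cells, and 11.45 against 13.00 in control cells. Rpl13 fell by 1.19 in knockdown and 1.46 in control cells, Rps16 by 1.18 in knockdown and 1.17 in control cells, and Rps2 by 1.11 in knockdown and 1.22 in control cells. Rps13 fell by 1.28 in control cells and had a difference of -0.99 in knockdown cells, just inside the threshold. Rps7, which also binds Mdm2, fell by 1.07 in control cells and had -0.67 in knockdown cells. Its dimmer probe gave -1.13 in control and -1.08 in knockdown cells, past 2-fold in both.

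Rpl22 and Rpl37 went the other way. Rpl22, a large-subunit protein that also binds RNA outside the ribosome, had log2 levels of 13.88 in ESCs, 13.90 and 13.86 in knockdown and control cells at day 4, and 15.15 and 15.36 in knockdown and control cells at day 10. Both day 10 arrays thus lay above the other 3 by more than 1 on the log2 scale. Rpl37, also of the large subunit, had 13.23 in ESCs, 11.76 and 12.04 in knockdown and control cells at day 4, and 13.25 and 13.27 in knockdown and control cells at day 10. Its day 10 levels lay within 0.05 of that of ESCs, and the day 4 arrays were the low ones. Its dimmer probe had 8.42 in ESCs, 8.90 and 8.93 in knockdown and control cells at day 4 and 9.82 and 9.52 in knockdown and control cells at day 10, with no dip at day 4 (a log2 difference from ESCs of 0.52, where the brighter probe gave -1.19).

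**Figure D2:**
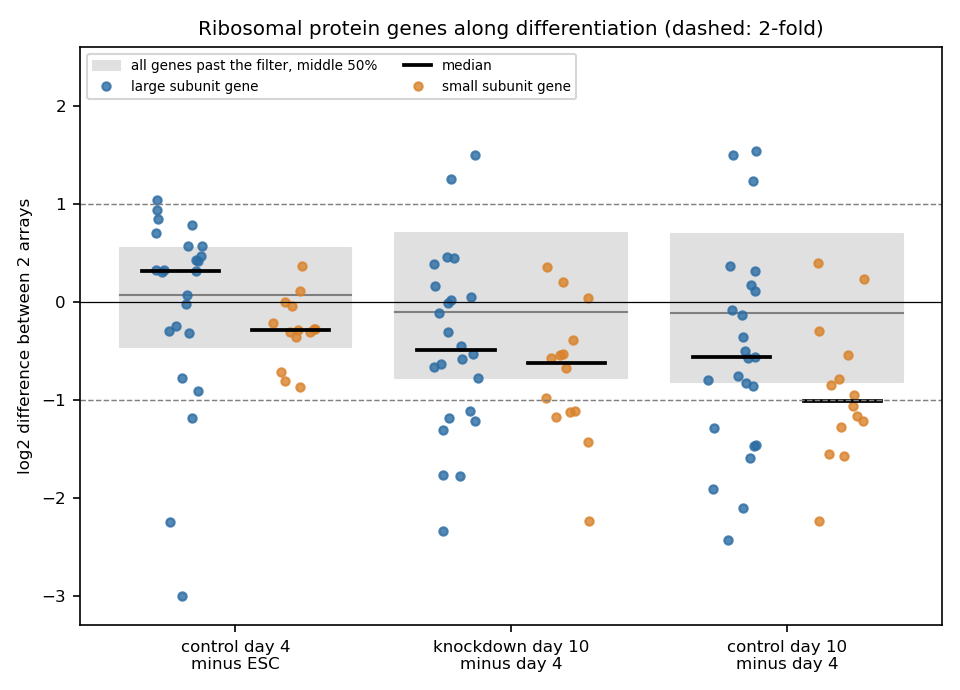
Log2 difference between 2 arrays (y axis) for each ribosomal protein gene, 1 point a gene, in 3 comparisons along the x axis, with large-subunit genes in blue and small-subunit genes in orange. Black bars are medians, grey boxes the middle 50% of all genes past the filter with a line at their median, and dashed lines mark 2-fold. The points of both subunits lie mostly below 0 at day 10 in both courses, while at day 4 the large-subunit median (0.32) lies above 0 and the small-subunit median (-0.29) below it.

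The probes of Rpl4 and Rpl8, the brightest of the family, hardly moved. Rpl4, a large-subunit protein, had log2 levels of 18.33 in ESCs, 18.15 and 18.08 in knockdown and control cells at day 4, and 18.20 and 18.19 in knockdown and control cells at day 10, above the 99th percentile of every array. Rpl8, also of the large subunit, had 17.95 in ESCs, 17.78 and 17.63 in knockdown and control cells at day 4, and 17.80 and 17.80 in knockdown and control cells at day 10. Probes so near the top of the scale may be limited by the scanner, and saturation marks were not used here. Rplp0, which anchors the stalk that recruits elongation factors, had 15.75 in ESCs, 16.28 and 16.31 in knockdown and control cells at day 4, and 15.64 and 15.74 in knockdown and control cells at day 10. Rplp1 and Rplp2, the other stalk proteins, were not among the measured genes.

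The other genes moved less between day 4 and day 10. Rpl23, Rpl29, Rps21 and Rpl38 had log2 differences of -0.83, -0.86, -0.85 and -0.80 in control cells, past 1.5-fold but short of 2-fold. Rps25, which some viral messages need to enter the ribosome, had -0.54 in knockdown and -0.79 in control cells. Rpl10a, carried by only some ribosomes of mouse ESCs, had -0.78 in knockdown and -0.75 in control cells. Rps3, which lies at the entry of the messenger RNA channel, Rpl6, Rpl19 and Rps27l had between -0.30 and -0.56 in control cells. Rpl21, Rpl27a, Rps27, Rpl37a and Rpl15 lay between -0.14 and 0.37 in control cells, so their levels hardly differed between the days.

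Falls were counted in both subunits. Of the 12 small-subunit genes past the filter 7 fell at least 2-fold in control cells between day 4 and day 10, and of the 21 large-subunit genes 6 did. The median log2 difference was -1.01 over the 14 small-subunit genes and -0.57 over the 24 large-subunit genes. In knockdown cells 5 of 12 small-subunit and 7 of 21 large-subunit genes fell, with medians of -0.63 for the small and -0.49 for the large subunit. The difference between the subunits was not tested.

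Most genes that fell in one course fell in the other as well. The courses of knockdown and control cells share no array. In knockdown cells 12 genes were at least 2-fold lower at day 10 than at day 4 and 2 were higher, where 18.1% and 18.7% of all genes past the filter passed, and the median over the 38 genes was -0.56. Of the 13 genes that fell in control cells and the 12 in knockdown cells, 11 were shared, which is 91.7% of the knockdown calls and 84.6% of the control calls. They were Rpl5, Rpl13, Rpl14, Rpl24, Rpl30, Rpl35a, Rps2, Rps3a1, Rps15a, Rps16 and Rps24. Rpl23 passed in knockdown cells alone (-1.22, against -0.83 in control cells). Both genes that rose, Rpl22 and Rpl37, rose in both courses. The difference had the same sign in 36 of 38 genes, and Pearson's r over the 38 genes was 0.90, the same as over the 12185 genes past the filter in any array (0.90). The courses were thus as alike over all genes as over these 38.

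**Figure D3:**
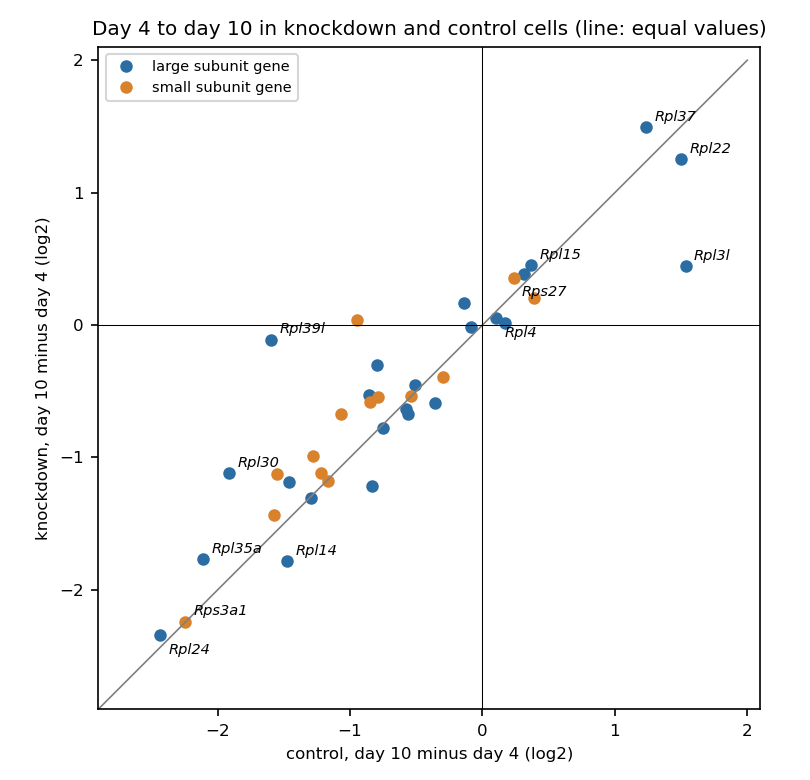
Each point is 1 ribosomal protein gene, with its log2 difference of day 10 minus day 4 in knockdown cells (y axis) and in control cells (x axis). Large-subunit genes are blue, small-subunit genes orange, and the diagonal marks equal differences. Rpl24 and Rps3a1 are lowest in both courses, Rpl22 and Rpl37 are high in both, and Rpl3l and Rpl39l lie away from the diagonal.

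Promoter sequences are shown for 6 genes that fell in both courses and for the 2 that rose, so that the start regions of genes that moved in opposite directions can be read side by side. They come from RefSeq on GRCm38.p6 and run from 40 bases before to 20 bases after the annotated start of the gene, 5′ to 3′ on the strand of the gene. Capitals mark runs of at least 8 pyrimidines (C or T) within 30 bases of the annotated start, the kind of run in which TOP messages begin.
Rpl24 (fell; chr16:55966235-55966294, plus strand): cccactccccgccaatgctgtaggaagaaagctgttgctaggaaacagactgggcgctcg
Rps3a1 (fell; chr3:86142649-86142708, minus strand): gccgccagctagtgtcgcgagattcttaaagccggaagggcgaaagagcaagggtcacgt
Rpl35a (fell; chr16:33056413-33056472, plus strand): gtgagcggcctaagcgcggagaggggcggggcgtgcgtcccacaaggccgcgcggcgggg
Rpl14 (fell; chr9:120571477-120571536, plus strand): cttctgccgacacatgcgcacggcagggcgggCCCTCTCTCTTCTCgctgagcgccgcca
Rps24 (fell; chr14:24490638-24490697, plus strand): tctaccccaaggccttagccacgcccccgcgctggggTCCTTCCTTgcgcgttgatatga
Rps15a (fell; chr7:118116128-118116187, minus strand): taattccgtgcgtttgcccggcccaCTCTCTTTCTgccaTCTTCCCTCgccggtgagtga
Rpl22 (rose; chr4:152324396-152324455, plus strand): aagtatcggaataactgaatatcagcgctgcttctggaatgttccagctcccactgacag
Rpl37 (rose; chr15:5116573-5116632, plus strand): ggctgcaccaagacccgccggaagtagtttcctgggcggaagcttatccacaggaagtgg

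The pyrimidine run was present in Rpl14, Rps24 and Rps15a and in neither gene that rose, but it was also lacking in Rpl24, Rps3a1 and Rpl35a, which fell too. Promoters were matched for 33 of the 38 genes, and not for Rpl8, Rpl21, Rpl29, Rpl30 and Rps29. A run of this kind was found in 14 of the 33 (42.4%), against 22.8% of all 27025 promoters in the RefSeq table and 21.8% of the array promoters, and in 5 of the 10 matched genes that fell in both courses. An annotated start can differ from the one a cell uses, and no match means only that these letters are not in this window. Within the full 300 bases (250 before to 50 after the start), searched on both strands, the letters CCGGAA, the core of sites for ETS-family factors, were in 18 of 33 promoters (54.5%), against 15.2% of all promoters and 21% of the 13980 promoters matched to named genes of the array. Genes of the mitochondrial ribosome (56.7%) and of the proteasome (46.7%) held it about as often. It was in 3 of the 10 that fell in both courses and in 15 of the other 23. The letters AAGATGGC, the core of YY1 sites, were in 4 (12.1%, against 2.87% of all and 3.61% of array promoters). CACGTG, the E-box bound by MYC, was in 3 (9.09%, against 7.23% of all and 8.77% of array promoters), and TATAAA in 3 (9.09%, against 14.2% of all and 10.6% of array promoters). These matches describe the sequences and do not show that a factor bound them.

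Between ESCs and day 4 the median of the family was near 0, with the subunit medians on either side of it. The median log2 difference of control day 4 minus ESC day 0 was -0.03 over the 38 genes and 0.07 over all genes past the filter. It was 0.32 over the large-subunit genes, 15 of 24 above 0, and -0.29 over the small-subunit genes, 12 of 14 below 0. With the intensities as deposited, without further scaling between the arrays, the small-subunit median was 0.05 with 9 of 14 above 0. The median of all genes was then 0.35. Relative to the median of all genes, the small-subunit median lay between -0.35 and -0.29 and the large-subunit median between 0.16 and 0.25. These ranges cover quantile normalization, the values as deposited, scaling to the 75th percentile and loess. Whether the subunits differed was not tested. For a single gene in this comparison the between-probe SD was 0.61 over 1108 genes. It is the SD of the gap between the log2 differences that 2 probes of the same gene gave, scaled to 1 probe. That SD covers probe error and not the difference between cultures. The log2 of the summed intensities of the fibroblast markers was 10.58 in control cells at day 4, against 14.83 in ESCs. On the ESC array 2 of the 5 markers reached the filter. The part of this signal in the comparison was not tested.

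Single genes moved more. Past the filter 1 gene was at least 2-fold higher at day 4 and 3 were lower, where 12.8% and 13.9% of all genes passed. Rpl5 was the higher one (a log2 difference of 1.04), and Rpl35a (0.94), Rpl14 (0.85), Rpl23 (0.78) and Rpl29 (0.70) came next. Rpl39l, Rpl3l and Rpl37 were the lower ones, with -3.0, -2.25 and -1.19, and the dimmer probe of Rpl37 gave the opposite sign. Of the 2 dimmer probes of Rpl3l, the brighter gave 0.31 and the other, at the floor of the scale at day 4, had a difference of -0.63 or lower. Rpl38, needed in mouse embryos for the translation of a set of Hox messages, stood at 14.12 in ESCs, 13.11 and 13.21 in knockdown and control cells at day 4, and 12.81 and 12.42 in knockdown and control cells at day 10. Its level thus stepped down at each stage. Rps21 followed a like course, with 14.96 in ESCs, 13.98 and 14.09 in knockdown and control cells at day 4, and 13.40 and 13.24 in knockdown and control cells at day 10.

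Over the whole control course, after quantile normalization, most small-subunit genes were highest in ESCs and 13 of 24 large-subunit genes at day 4. Of 14 small-subunit genes 10 had their highest level in ESCs, 2 at day 4 and 2 at day 10. Of 24 large-subunit genes 7 had it in ESCs, 13 at day 4 and 4 at day 10. The lowest level was at day 10 in 26 of the 38. These counts were not made over all genes. With the intensities as deposited, 9 of 14 small-subunit genes were higher at day 4 than in ESCs. The stage at which these genes were highest thus depended on the scaling. Control day 10 against ESC day 0 gave 14 genes at least 2-fold lower and 1 higher, where 22.4% and 22.9% of all genes passed, with medians of -1.41 for the small and -0.17 for the large subunit. The 3 lowest were Rpl39l (-4.60), Rpl24 (-3.21) and Rps3a1 (-2.96).

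Between knockdown and control cells the median difference of the ribosomal protein genes was near 0 at both days, and few genes of any kind passed the threshold. At day 4, of the 33 genes that passed the filter 0 were up and 0 were down by 2-fold or more, where 0.804% and 1.47% of all genes passed. At the 1.5-fold threshold the counts were again 0 and 0, where 2.61% and 3.74% of all genes passed. The median log2 difference of knockdown minus control was -0.08 over the 38 genes and 0.01 over all genes past the filter. The genes ran from -0.70 (Rpl39l) to 0.16 (Rpl23), 26 lay below 0, and 28 lay within the between-probe SD of 0.21 (1034 genes). The other 10 all lay below it. Small-subunit genes had a median of -0.14, with 12 of 14 below 0, and large-subunit genes one of -0.05. After Rpl39l, the lowest were Rpl13, with 12.08 in knockdown and 12.39 in control cells, and Rpl24, with 12.76 in knockdown and 13.06 in control cells. With 1 culture a group, a shift of this size was not separable from the difference between any pair of cultures.

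At day 10 the median difference was 0.00 over the 38 genes and 0.03 over all genes past the filter. Of the 32 genes that passed the filter 0 were up and 0 were down by 2-fold or more, where 2.5% and 3.61% of all genes passed. At 1.5-fold 1 gene was higher and 0 lower, where 7.3% and 8.49% passed. That gene was Rpl30, at 13.36 in knockdown and 12.74 in control cells (a log2 difference of 0.62). Its other probe stood at 9.84 in knockdown and 9.56 in control cells (0.29). Of the 38 genes 31 lay within the between-probe SD of 0.27 (1075 genes), 5 above and 2 below. Those below were Rpl3l and Rpl14 (11.60 in knockdown and 11.99 in control cells).

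**Figure D4:**
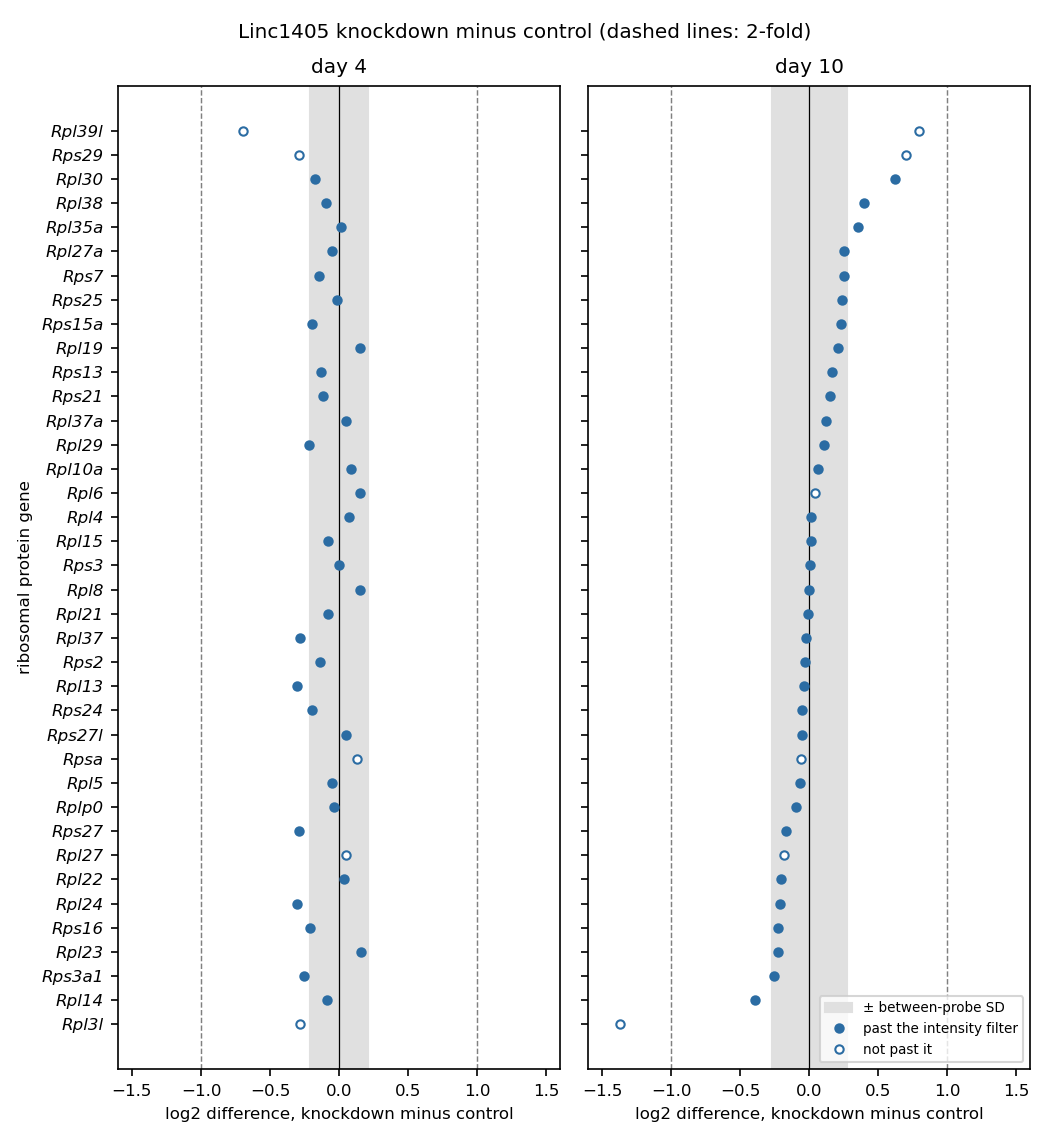
Log2 difference of knockdown minus control for each ribosomal protein gene (rows) at day 4 (left) and day 10 (right). Filled points passed the intensity filter, open points did not, grey bands show the between-probe SD on either side of 0 and dashed lines mark 2-fold. Every filled point lies inside the 2-fold lines at both days, and of the open points Rpl3l lies outside them at day 10.

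Among the paralogues named for another ribosomal protein, Rpl39l and Rpl3l varied widely and Rps27l did not. Rpl39l, the autosomal paralogue of Rpl39 that is best known from testis, had a log2 level of 11.77 in ESCs, 8.07 and 8.76 in knockdown and control cells at day 4, and 7.96 and 7.17 in knockdown and control cells at day 10. The ESC array stood far above the other 4, which all lay below the intensity filter. Rpl3l, the paralogue of Rpl3 found in heart and skeletal muscle, had 9.81 in ESCs, 7.28 and 7.56 in knockdown and control cells at day 4, and 7.73 and 9.10 in knockdown and control cells at day 10. At day 10 its difference of knockdown minus control was -1.37, but neither array reached the filter, and its 3 probes did not move together. The middle one in brightness gave -0.04. The dimmest had knockdown at the floor of the scale (a log2 intensity of 6.64) and control at 7.59, so its difference was -0.95 or lower. The heart muscle genes Actc1 (16.81 in knockdown and 17.82 in control cells) and Ttn (13.00 in knockdown and 15.56 in control cells) were lower in the same knockdown array. Of the 6 measured cardiomyocyte markers 4 were at least 2-fold lower there and 1 at least 2-fold higher, where 3.61% and 2.5% of all genes passed. Whether Rpl3l followed the share of muscle cells was not tested. Rps27l, a paralogue of Rps27 and a p53 target, was bright and level, between 15.70 and 16.26 in all 5 arrays.

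Some probes were dim throughout. Rpsa, the small-subunit protein that also acts as a laminin receptor, read between 7.67 and 8.06, Rpl27 between 8.26 and 8.88, and Rps29 7.30 in knockdown and 7.59 in control cells at day 4. Brightness differs between probes for reasons of sequence, so these levels do not rank the messages. In the mouse genome many ribosomal protein genes have processed copies: the RefSeq table names 127 pseudogenes after 27 of the 38 genes. Probe sequences were not used here, so signal from such copies is uncertain for every gene named. Of the 7 genes with more than 1 probe, the 2 brightest agreed in sign for 6 in control day 10 minus day 4, the exception being Rpl3l. The dimmer probes of Rpl30, Rps7 and Rps15a gave -1.51, -1.13 and -1.01, so each of these falls was seen by 2 probes. In knockdown cells the same dimmer probes gave -0.96, -1.08 and -0.64. The between-probe SD in control day 10 minus day 4 was 0.74 over 1148 genes, and 21 of the 38 genes lay below its negative and 3 above it.

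Related genes were set beside the shares of all genes at least 2-fold lower between day 4 and day 10, 18.1% in knockdown and 19.4% in control cells. Of the 41 measured factors that assemble ribosomes, 40 passed the filter in each course. Of these, 33 were at least 2-fold lower at day 10 than at day 4 in control cells and 0 were higher (31 lower and 1 higher in knockdown cells). The median log2 difference over the 41 was -1.88 in control cells (-1.68 in knockdown cells). The lowest were the helicase Ddx21 (-4.67), Bop1 (-3.87), which matures the large-subunit RNA, and Heatr1 (-3.39), which is needed for ribosomal RNA transcription, and the highest was Sbds (0.65), which releases a factor from new large subunits. These factors thus had a lower median than the ribosomal proteins themselves. RNA polymerase I genes had a median of -0.48 in knockdown and -0.49 in control cells, with 4 of 20 lower in knockdown and 6 of 20 in control cells. The cell cycle list, given because ribosome production is tied to growth, had 19 measured genes, 18 of them past the filter in each course. In each course 11 of the 18 were at least 2-fold lower. The medians of the cell cycle list were -1.45 in knockdown and -1.52 in control cells, and its part in the result was not tested.

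Of 35 measured initiation factors 34 passed the filter in control cells, and 11 of the 34 were at least 2-fold lower at day 10 and 0 higher. The median over the 35 was -0.49, and the falls were led by Eif2b5 (-2.55), Eif2s1 (-2.37) and Eif3b (-2.33). Of 11 elongation factors 5 were lower and 1 higher, with a median of -0.96. The higher one was Eef1a2, the muscle and nerve form of elongation factor 1A (3.60), and it was also lower in knockdown than in control cells at day 10 (-2.06). Fau, which encodes small-subunit protein S30 as a ubiquitin-like fusion and falls outside the naming rule, read 13.13 in ESCs, 12.78 and 13.01 in knockdown and control cells at day 4, and 11.78 and 11.57 in knockdown and control cells at day 10. It thus moved with the small-subunit genes. The 13 other measured genes with TOP messages had a median of -0.03 in knockdown and -0.27 in control cells, and 20 genes of the mTOR and S6 kinase pathway one of -0.36 in knockdown and -0.57 in control cells.

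Mitochondrial ribosomal proteins and proteasome subunits served as other large complexes. The 69 mitochondrial ribosomal protein genes had a median of -0.28 in knockdown and -0.36 in control cells between day 4 and day 10. Past the filter, 5 of 66 (7.58%) were at least 2-fold lower in knockdown and 4 of 65 (6.15%) in control cells. Those shares were below the ones of all genes (18.1% in knockdown and 19.4% in control cells). The 37 proteasome genes had -0.40 in knockdown and -0.47 in control cells, with 8 of 34 (23.5%) lower in each course, near the shares of all genes. The medians of the cytosolic ribosomal proteins, -0.56 in knockdown and -0.79 in control cells, were lower than both. No test of these differences was possible.

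**Figure D5:**
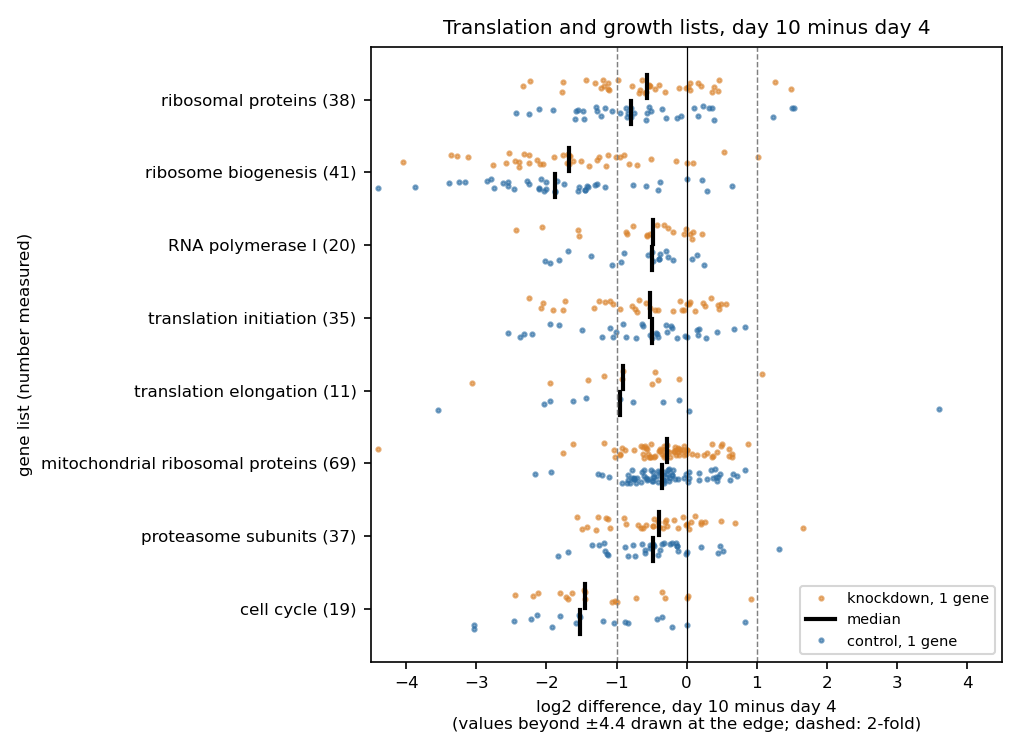
Log2 difference of day 10 minus day 4 for the genes of each list, 1 point a gene, in knockdown (orange) and control cells (blue), with a black bar at the median. Dashed lines mark 2-fold, and values beyond the axis are drawn at its edge. Ribosome assembly factors have the lowest median of the lists on translation (-1.68 in knockdown and -1.88 in control cells), followed by elongation factors and the cytosolic ribosomal proteins.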

How the data were processed

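RNA of 5 mouse cultures was measured on single-colour arrays with Cy5, grouped by the labels. The authors deposited linear probe intensities, extracted with Agilent Feature Extraction 10.7.1.1 per the submitters' processing notes. Whether the authors then normalized them is a point not given in the sources used here. On the day 10 knockdown array 1050 intensities were at or below 0. There were 3 in ESCs, 0 and 38 in knockdown and control cells at day 4, and 3 in control cells at day 10. Values at or below 0 occur where a background has been subtracted. The array medians ran from 344 to 745, so the deposited intensities had not been brought to equal distributions. They were quantile normalized over the 5 arrays (numpy 2.4.6, pandas 2.3.3, Python 3.11.15), set to a floor of 100, which took 19.0 to 19.1% of the probes of an array, and converted to log2. Where 1 of the arrays was at the floor, the difference is given as a bound.

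Of 26423 probes 20377 had 1 symbol, 0 had more than 1 and 6046 had none here. Names were brought up to date with a RefSeq gene table of GRCm38.p6 (18213 current, 2126 through a synonym, 38 kept as given), which gave 17742 genes. The brightest probe stood for a gene. A gene passed the filter where its brighter array reached the 50th percentile of all probes, unnamed ones included. Thresholds of 2-fold and 1.5-fold were used. With 1 array a group there was no test, and precision is limited by how few arrays there were. Loess used statsmodels 0.14.6 (span 0.3, 3 iterations). The normalization and counting steps were tested on simulated data.

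Named genes were those past 2-fold, the 3 highest and 3 lowest of each comparison, genes of listed roles, up to 3 genes of each list that moved with its median and 2 that did not, and as anchors Pou5f1, T, Actc1, Ttn, Eomes, Myc and Mycn. Other ribosomal protein genes were named after their values were seen. The genes, lists and rules were chosen with earlier results of these data known. Alternatives were the values as deposited, scaling to the 75th percentile, loess, the mean of all probes, other filters and floors, a 4-fold threshold and other choices of members. A filter on the mean of both arrays and the use of the second probe were added after seeing the data.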

Additional observations from a re-analysis of the deposited data

Results flagged for a closer look

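Rpl39l and Rps29 moved in opposite directions with the knockdown at the 2 days. The log2 difference of knockdown minus control was -0.70 at day 4 and 0.79 at day 10 for Rpl39l, and -0.29 at day 4 and at least 0.70 at day 10 for Rps29, whose control array at day 10 was at the floor. Neither gene passed the intensity filter at either day, each had 1 array in each group, and the difference between the days was not tested.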

How the results depend on the processing

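Of the recomputed values 201 were counted as close to those reported and 36 as moved. Medians counted as close could still differ in size. In control day 10 minus day 4 the median was -0.79 in the main setting, -1.52 as deposited and -0.49 with loess (all genes -0.12, -0.95 and 0.02). In knockdown day 10 minus day 4 it was -0.56 in the main setting, -1.07 as deposited and -0.36 with loess (all genes -0.11, -0.63 and 0.02). Some medians near 0 changed sign and were still counted as close. As deposited, the median of knockdown minus control at day 4 was 0.13, against -0.08 in the main setting (all genes 0.20). Control day 4 minus ESC was 0.27 as deposited, against -0.03 in the main setting (all genes 0.35). With the intensities as deposited, the median of knockdown minus control at day 10 was 0.48 (all genes 0.54) with 1 gene higher, day 4 minus ESC had 4 genes higher, day 10 minus day 4 had 24 lower and 0 higher in control cells (all genes -0.95, 48.1% lower), 19 lower and 1 higher in knockdown cells, and the median levels were 12.68 in ESCs, 13.09 and 13.13 in knockdown and control cells at day 4 and 11.24 in control cells at day 10. With the mean of all probes, day 4 minus ESC had 1 lower, control day 10 minus day 4 had 1 higher, and the levels were 12.59 in ESCs and 11.39 in control cells at day 10. With loess, day 4 minus ESC had 0 higher. With no filter, knockdown minus control at day 10 had 1 lower, which was Rpl3l. Day 4 minus ESC had 1 lower with the filter at the 75th percentile and 1 lower without the paralogues ending in l, and 0 higher and 0 lower with the filter at the 90th percentile. That filter left 3 lower and 1 higher of 13 genes in control and in knockdown day 10 minus day 4, where 19.7% of all genes were lower in control and 18.6% in knockdown cells, and 7 of 16 lower in day 10 minus ESC (21.8%). At 4-fold, 0 genes were higher in the control course, the knockdown course, day 4 minus ESC and day 10 minus ESC, and 3, 2 and 4 were lower in the control course, the knockdown course and day 10 minus ESC. With the second probe, 1 was higher in each course and 2 in day 10 minus ESC.

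No paired analysis was possible because each group held 1 array. Probe error, dim probes such as Rpsa, Rpl27 and Rps29, and unmeasured family members limit the counts. A culture effect and a group effect cannot be told apart.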

Other observations

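Mrpl36, a protein of the mitochondrial large subunit, was listed at the floor of 6.64 in ESCs and in knockdown cells at day 10, against log2 levels of 14.78 and 14.89 in knockdown and control cells at day 4 and 14.38 in control cells at day 10. It had 1 probe and was the mitochondrial ribosomal protein gene with the widest range, and it was chosen after its values were seen. Psmd10, a chaperone of the proteasome base, read 15.29 in knockdown and 15.06 in control cells at day 10, against 13.63 in knockdown and 13.73 in control cells at day 4, while 31 of 37 proteasome genes lay below 0 in control day 10 minus day 4. Among anchor genes, T, a mesoderm factor, had 10.62 in ESCs, 13.98 and 14.92 in knockdown and control cells at day 4, and 9.67 and 9.28 in knockdown and control cells at day 10. Eomes had 12.15 in ESCs, 12.17 and 12.01 in knockdown and control cells at day 4, and 10.31 and 10.05 in knockdown and control cells at day 10. Pou5f1, a pluripotency factor, had 12.20 in ESCs, 10.91 and 10.93 in knockdown and control cells at day 4, and 10.94 and 11.53 in knockdown and control cells at day 10.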
